A study of Mus musculus with 4 samples.

Results

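The genes described here cut, protect or crosslink the extracellular matrix, and they were followed in ingWAT, the inguinal white fat depot under the skin, of cold-housed mice with and without Oct3 in adipocytes. They were chosen by symbol from the genes in the table, with earlier results of these data known. The set held matrix metalloproteinases (Mmp, 19 genes), tissue inhibitors of metalloproteinases (Timp1 to Timp4, 4 genes), Adamts proteases (19 genes), Adamts-like proteins (Adamtsl, 5 genes) and lysyl oxidases (Lox and its relatives Loxl1 to Loxl4, 5 genes). These made up 52 of the 19030 genes in the table. Ctrl mice carried a floxed Oct3 gene, and in cKO mice an Adiponectin-Cre transgene deleted Oct3 in adipocytes, a design that leaves it in the other cells of the depot. Both genotypes were on the C57BL/6 strain, 3 months old and housed at 4 °C, which the Methods describe as the last stage of a stepwise cold challenge of males. There were 2 RNA-seq libraries of each genotype, and how many mice went into a library is not stated in the sources used here, so the p-values measure only the spread between these libraries.

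Levels are given as FPKM, a fragment count corrected for transcript length and library depth. Slc22a3, the gene that encodes Oct3, stood at 16.95 and 17.7 FPKM in the Ctrl libraries and at 9.07 and 9.50 FPKM in the cKO libraries, a log2 fold change of -0.83 (SE 0.066, limma adjusted p = 0.000439). These values cover the whole transcript and all cells of the depot, including cells in which the Cre is not active. Adipocyte markers were abundant in all libraries, with Adipoq, which encodes adiponectin, at 1527 and 1485 FPKM in Ctrl and at 966 and 1046 FPKM in cKO. Of the 7 white adipocyte markers 4, Adipoq among them, were called lower and 3 (Plin1, Fabp4 and Cidec) were not called. Plin1 stood at 534 and 497 FPKM in Ctrl and at 502 and 477 FPKM in cKO. Cidec stood at 1011 and 948 FPKM in Ctrl and at 1037 and 1013 FPKM in cKO. The genotypes also differed in markers of other cells. The 13 skeletal muscle markers summed to 2139 and 1423 FPKM in Ctrl against 8.58 and 6.79 FPKM in cKO, and 9 of 9 tested were lower in cKO. The 9 fibroblast progenitor markers summed to 1072 and 947 FPKM in Ctrl against 620 and 638 FPKM in cKO, with 6 called lower and 1 called higher. The 10 neutrophil markers summed to 14.8 and 15.6 FPKM against 32.4 and 31.9 FPKM, with 5 of 5 tested higher in cKO. The other 5, the granule genes Ngp, Camp, Ltf, Mpo and Elane, were too low to be tested. Of these, Mpo was at or below 0.09 FPKM in every library. The part of these shifts in the results below was not tested, and in bulk tissue fewer cells of a type and less RNA per cell cannot be told apart.

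The matrix around adipocytes is a mesh of fibrillar and basement membrane collagens, elastic fibres and proteoglycans, which is remodelled when fat expands, shrinks or turns beige in the cold. Mmp proteins are zinc proteases that cut collagens and other matrix proteins, Timp proteins block them by occupying the active site, and Adamts proteases cut proteoglycans such as versican and trim procollagens. Lysyl oxidases act in the opposite direction and oxidise lysines of collagen and elastin, which starts their crosslinking.

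Most of these genes that were expressed at an appreciable level were lower in cKO ingWAT, and 1 of them, Timp1, was higher. Of the 52 genes, 33 had a mean of at least 1 FPKM over the 4 libraries and were tested among 12658 genes on the log2(FPKM + 1) scale with limma, with Benjamini-Hochberg adjustment over all of them. A call is an adjusted p under 0.05. In all, 19 of the 33 were called, a share of 57.6% against 25.8% of all genes tested. There were 18 called lower (54.5%, against 13.8% of all genes tested) and 1 called higher (against 12.0%). The median log2 fold change was -0.36, with a range from -1.15 to 1.35, against a median of -0.006 over all genes tested. For 24 of the 33 genes the 2 cKO values were lower than either Ctrl value (34.6% of all genes tested did so), for 4 they were higher than either (31.9% of all genes tested), and for 5 the genotypes overlapped. All 18 genes called lower had both cKO values below both Ctrl values, which a call from 2 libraries per genotype largely entails.

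The fall was spread over the families. Among the Timp genes 3 of 4 were called lower, among the lysyl oxidases 3 of 4 tested, among the Adamtsl genes 2 of 3, among the Mmp genes 6 of 12 and among the Adamts genes 4 of 10. A filter on the mean favours genes that are high in 1 genotype, and 3 of the tested genes (Adamts14, Adamtsl1 and Mmp27) reached 1 FPKM on average in Ctrl alone. Of the other 30, which reached it in both genotypes, 16 were called lower and 1 higher. The count fell when any library was left out, and most without Ctrl replicate 1. Each of these fits leaves a single library in 1 genotype and so has less power. The part of this in the lost calls was not tested. Without Ctrl replicate 1, 8 members were called (Timp1 higher, and Timp2, Timp3, Timp4, Mmp2, Adamts2, Adamts5 and Adamtsl4 lower), and the calls over all genes fell from 3269 to 877. Ctrl replicate 1 is also the library with the highest muscle marker sum.

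**Figure D1:**
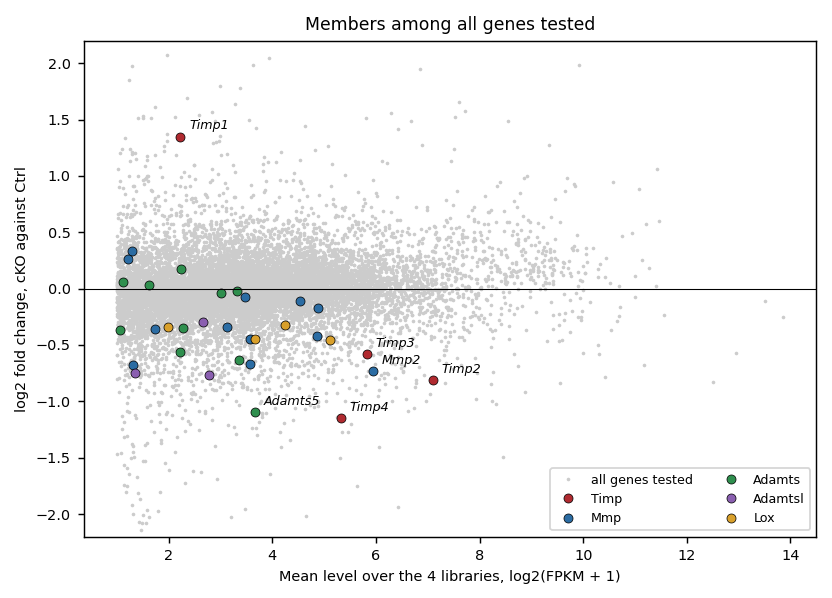
Change between genotypes (vertical axis, log2 fold change of cKO against Ctrl on FPKM + 1) against mean level over the 4 libraries (horizontal axis, log2 of FPKM + 1) for the 12658 genes tested (grey) and the 33 tested members, coloured by family. Most members lie below 0, from Timp4 at -1.15 upward, and Timp1 lies apart from them at 1.35. The vertical axis leaves out 42 genes beyond ±2.2, none of them a member.

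On the log2(FPKM + 1) scale the tissue inhibitors held both the largest rise and the largest fall among the 33 genes, although with a pseudocount of 0.1 Adamtsl1 (-1.20) and Adamts5 (-1.19) fell further than Timp4 (-1.18). Timp1, a secreted inhibitor known to be induced by cytokines and to bind pro-Mmp9, stood at 1.75 and 1.46 FPKM in Ctrl and at 6.75 and 4.66 FPKM in cKO. Its lower cKO value was above its higher Ctrl value by more than the gap within either genotype, and the log2 fold change was 1.35 (SE 0.155, adjusted p = 0.00146). The ratio of the FPKM means, 3.55, is larger than this value implies because adding 1 to low FPKM values compresses the change. From the estimated depth the Ctrl values of Timp1 rest on about 26.9 and 22.0 reads and the cKO values on about 99.5 and 69.3.

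Timp2, which both inhibits Mmp proteins and helps Mmp14 to activate pro-Mmp2, was the most abundant of the 52 genes. It stood at 191 and 156 FPKM in Ctrl and at 94.5 and 102 FPKM in cKO (log2 fold change -0.81, SE 0.099, adjusted p = 0.0018). Timp3, the inhibitor that binds to the matrix and also blocks aggrecanases of the Adamts family, stood at 67.4 and 66.2 FPKM in Ctrl and at 42.2 and 46.6 FPKM in cKO (log2 fold change -0.58, SE 0.065, adjusted p = 0.00133). Timp4, an inhibitor that is prominent in heart and fat, stood at 52.9 and 55.4 FPKM in Ctrl and at 22.9 and 25.0 FPKM in cKO. Its log2 fold change of -1.15 (SE 0.065, adjusted p = 0.000168) was the largest fall of the 33 genes on this scale, and its mean level fell by 55.8%. In Ctrl libraries Timp1 was thus far below its 3 relatives, and in cKO it remained the least abundant of the 4.

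The 4 inhibitors sit on different chromosomes. In the mm10 assembly (GRCm38.p6 in RefSeq) Timp1 spans chrX:20870166-20874737, Timp2 chr11:118301061-118355411, Timp3 chr10:86300412-86349505 and Timp4 chr6:115244444-115252205. Timp1, Timp3 and Timp4 each lie wholly within the span of a synapsin gene, Syn1, Syn3 and Syn2 respectively. No strand setting is stated for the counting, so the host genes are given here. Syn1 was at 0.26 to 0.38 FPKM and Syn3 at 0.23 to 0.31 FPKM in the 4 libraries. Syn2 stood at 3.99 and 4.06 FPKM in Ctrl and 3.28 and 3.47 FPKM in cKO, a log2 fold change of -0.20 that was not called (adjusted p = 0.135). The hosts were at lower levels than the inhibitors they hold in every library.

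The promoters of the 4 inhibitors are shown because Timp1 was called in the opposite direction to the others. Each line gives the 250 bases before the start of the gene in RefSeq, 5′ to 3′ on the strand of the gene, from chrX:20869916-20870165 (plus strand), chr11:118355412-118355661 (minus), chr10:86300162-86300411 (plus) and chr6:115252206-115252455 (minus). Capitals mark a match to the GC box, GGGCGG on either strand.
Timp1: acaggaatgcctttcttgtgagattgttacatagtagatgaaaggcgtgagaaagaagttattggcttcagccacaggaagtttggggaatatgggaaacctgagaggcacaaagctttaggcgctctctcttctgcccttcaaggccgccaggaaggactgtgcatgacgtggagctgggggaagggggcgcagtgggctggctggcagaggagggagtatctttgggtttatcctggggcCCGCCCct
Timp2: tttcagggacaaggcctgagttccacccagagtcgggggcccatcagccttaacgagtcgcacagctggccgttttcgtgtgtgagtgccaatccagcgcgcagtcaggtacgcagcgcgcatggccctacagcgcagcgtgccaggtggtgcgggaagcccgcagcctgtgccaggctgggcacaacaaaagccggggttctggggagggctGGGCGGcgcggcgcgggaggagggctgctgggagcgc
Timp3: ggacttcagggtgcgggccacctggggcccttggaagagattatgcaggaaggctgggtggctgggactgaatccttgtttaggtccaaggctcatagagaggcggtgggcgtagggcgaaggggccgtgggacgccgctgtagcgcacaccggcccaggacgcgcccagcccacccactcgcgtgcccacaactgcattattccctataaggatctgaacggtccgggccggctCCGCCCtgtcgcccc
Timp4: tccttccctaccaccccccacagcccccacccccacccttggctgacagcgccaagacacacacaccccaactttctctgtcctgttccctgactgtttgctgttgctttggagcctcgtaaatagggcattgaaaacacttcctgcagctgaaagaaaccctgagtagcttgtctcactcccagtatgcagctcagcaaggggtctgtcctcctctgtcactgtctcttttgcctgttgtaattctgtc

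Windows of this kind were at hand for 33 of the 52 genes and for 27025 genes in all, and 3 motifs were searched on both strands. All 52 genes have coordinates in RefSeq, so the gap lies in the sequences at hand. No matches of different motifs overlap in the windows shown. The GC box occurred in the windows of Timp1, Timp2 and Timp3 and not in that of Timp4. It occurred in 21 of the 33 members with a window (63.6%) and in 33.0% of all promoters, and among tested genes in 14 of 21 members (66.7%) and 58.9% of promoters. The AP-1 site TGANTCA, the element through which Jun and Fos proteins act on several protease genes, was in none of the 4 windows. It was found in Mmp3, Mmp7, Mmp13 and Mmp20 (4 of 33, 12.1%, against 6.85% of all promoters), and among tested genes in 1 of 21 members and 4.24% of promoters. The TATA box TATAAA was found in the same 4 genes and in Adamts1 and Adamtsl2 (6 of 33, 18.2%, against 13.0%), and among tested genes in 2 of 21 members and 6.53% of promoters. A match is a run of letters in these windows and not a measured binding site.

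**Figure D2:**
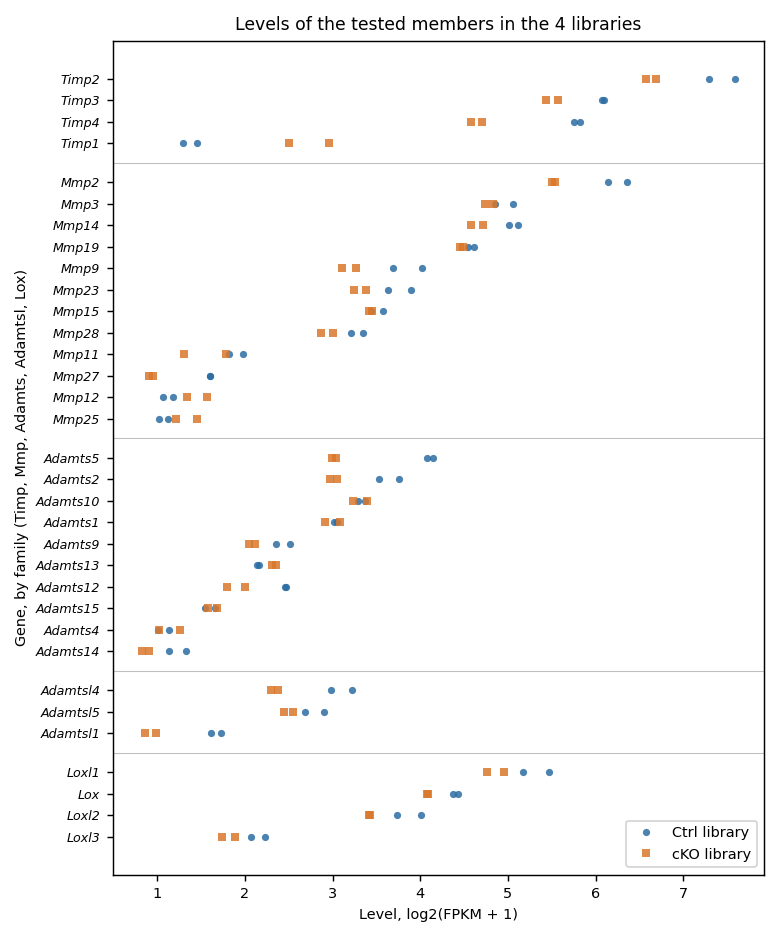
Level of the 33 tested members (horizontal axis, log2 of FPKM + 1) in each library, by family, with the 2 Ctrl libraries as blue circles and the 2 cKO libraries as orange squares. The cKO points lie to the left of the Ctrl points for 24 genes, and Timp1 shows the widest shift to the right.

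The gelatinases, which digest denatured collagen and basement membrane collagen, were both lower in cKO. Mmp2 stood at 81.2 and 69.6 FPKM in Ctrl and at 44.4 and 45.4 FPKM in cKO (log2 fold change -0.73, SE 0.079, adjusted p = 0.00124). It was the most abundant metalloproteinase and supplied 34.5% to 35.8% of the summed Mmp level in Ctrl libraries and 28.2% to 28.7% in cKO libraries. Mmp9, the gelatinase made largely by leukocytes, stood at 15.2 and 11.9 FPKM in Ctrl and at 8.64 and 7.63 FPKM in cKO (log2 fold change -0.67, SE 0.116, adjusted p = 0.00665). This call was lost without Ctrl replicate 1. The fall of Mmp9 went with a rise of the neutrophil markers named above. The macrophage markers moved both ways, with 2 called higher, 3 called lower and sums of 770 and 699 FPKM in Ctrl against 781 and 808 FPKM in cKO.

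Mmp14, the membrane-bound collagenase that activates pro-Mmp2 and is needed for fat cells to grow within collagen, stood at 33.7 and 31.3 FPKM in Ctrl and at 22.9 and 25.2 FPKM in cKO (log2 fold change -0.42, SE 0.071, adjusted p = 0.00605). Thus Mmp2, Mmp14 and Timp2, the genes of the 3 proteins of the pro-Mmp2 activation complex, were each called lower in RNA. The call of Mmp14 was lost without Ctrl replicate 1. A second membrane-bound protease, Mmp15, was at 10.9 and 9.84 FPKM in Ctrl and at 9.91 and 9.71 FPKM in cKO, with overlapping genotypes (log2 fold change -0.07, adjusted p = 0.522). Mmp25, a protease with a lipid anchor that is known from leukocytes, was low, at 1.03 and 1.18 FPKM in Ctrl and 1.33 and 1.73 FPKM in cKO, and was not called (log2 fold change 0.26, adjusted p = 0.188). Mmp23, which is tethered to the membrane before it is shed, was at 13.9 and 11.4 FPKM in Ctrl and at 8.51 and 9.45 FPKM in cKO and was called lower (log2 fold change -0.45, SE 0.102, adjusted p = 0.0188), a call lost without Ctrl replicate 1 and without cKO replicate 1.

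The remaining metalloproteinases included a stromelysin of high level that was not called. Mmp3, stromelysin-1, which cuts proteoglycans and activates other Mmp proteins, stood at 32.3 and 27.9 FPKM in Ctrl and at 25.6 and 27.4 FPKM in cKO (log2 fold change -0.17, SE 0.081, adjusted p = 0.167). Both cKO values were below both Ctrl values, by a margin smaller than the gap between the Ctrl libraries. Mmp19, a protease of basement membranes, was similarly close between genotypes, at 22.3 and 23.5 FPKM in Ctrl and at 21.0 and 21.4 FPKM in cKO (log2 fold change -0.11, adjusted p = 0.236). Mmp11, stromelysin-3, was at 2.95 and 2.53 FPKM in Ctrl and at 1.47 and 2.45 FPKM in cKO and was not called (log2 fold change -0.36, SE 0.166, adjusted p = 0.164). The 2 cKO values of Mmp11 were far apart, and the higher of them was close to the lower Ctrl value. Mmp28, epilysin, was called lower, at 9.20 and 8.27 FPKM in Ctrl and at 7.0 and 6.33 FPKM in cKO (log2 fold change -0.34, SE 0.085, adjusted p = 0.0251), and this call was lost without Ctrl replicate 1, without Ctrl replicate 2 and without cKO replicate 2.

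A cluster on chromosome 9 holds 7 of the Mmp genes of the table, between bases 7272514 and 7699585 of mm10, in the order Mmp13, Mmp12, Mmp3, Mmp8, Mmp27, Mmp20 and Mmp7, and further Mmp genes that lie among them were not analysed here. The 7 genes had unlike levels and 1 of them was called. Mmp27 stood at 2.04 and 2.03 FPKM in Ctrl and at 0.93 and 0.87 FPKM in cKO (log2 fold change -0.68, SE 0.111, adjusted p = 0.00531), from about 60.2 and 58.8 reads against 26.3 and 24.8. The call of Mmp27 was lost without Ctrl replicate 1. Mmp12, the elastase of macrophages, was at 1.26 and 1.10 FPKM in Ctrl and at 1.53 and 1.97 FPKM in cKO. Its log2 fold change of 0.33 (SE 0.129, adjusted p = 0.103) was the highest among the Mmp genes tested and was not called, whereas with quantile normalization it was called higher (0.42, limma adjusted p = 0.0471). Mmp13, Mmp8, Mmp20 and Mmp7 were below the filter, and Mmp20 was listed at 0 in 3 libraries and at 0.02 FPKM in the fourth.

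Among the Adamts proteases that cut proteoglycans, the most abundant had the largest fall. Adamts5, the main aggrecanase in mouse cartilage and a protease of versican, stood at 16.7 and 15.9 FPKM in Ctrl and at 7.21 and 6.97 FPKM in cKO, and the genotypes were far apart relative to the gaps within them. The log2 fold change was -1.10 (SE 0.068, adjusted p = 0.000198) and the mean level fell by 56.5%. Its neighbour Adamts1, another versican protease, lies at chr16:85793827-85803113 next to Adamts5 at chr16:85858157-85901125. Adamts1 was at 7.29 and 7.09 FPKM in Ctrl and at 7.46 and 6.53 FPKM in cKO, with overlapping genotypes (log2 fold change -0.04, SE 0.084, adjusted p = 0.78).

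Adamts9, a further versican protease, was at 4.13 and 4.72 FPKM in Ctrl and at 3.14 and 3.35 FPKM in cKO (log2 fold change -0.35, SE 0.095, adjusted p = 0.0346), and this call was lost when any 1 of the 4 libraries was left out. Adamts4, aggrecanase-1, and Adamts15 had overlapping genotypes. Adamts4 was at 1.02 and 1.2 FPKM in Ctrl and at 1.39 and 1.03 FPKM in cKO (adjusted p = 0.766). Adamts15 was at 2.15 and 1.92 FPKM in Ctrl and at 1.99 and 2.2 FPKM in cKO (adjusted p = 0.87).

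Of the Adamts genes that process procollagen, Adamts2 was called lower, Adamts14 was not called and Adamts3 was under the filter, at 0.08 and 0.10 FPKM in Ctrl and 0.11 and 0.21 FPKM in cKO (it is named here after its values were seen). Adamts2, which removes the N-terminal propeptide of fibrillar procollagens, stood at 12.5 and 10.6 FPKM in Ctrl and at 6.85 and 7.27 FPKM in cKO (log2 fold change -0.63, SE 0.091, adjusted p = 0.00321). Adamts14, with the same activity, was at 1.52 and 1.2 FPKM in Ctrl and at 0.78 and 0.88 FPKM in cKO and was not called (log2 fold change -0.36, SE 0.130, adjusted p = 0.0821). Adamts12, which cuts cartilage oligomeric matrix protein, was called lower, at 4.55 and 4.48 FPKM in Ctrl and at 2.48 and 2.99 FPKM in cKO (log2 fold change -0.57, SE 0.10, adjusted p = 0.00722), a call lost without either Ctrl library. Adamts10, a partner of fibrillin microfibrils, overlapped between genotypes, at 9.32 and 8.77 FPKM in Ctrl and at 8.37 and 9.49 FPKM in cKO (adjusted p = 0.892). Adamts13, the protease of von Willebrand factor, was at 3.49 and 3.41 FPKM in Ctrl and at 4.10 and 3.96 FPKM in cKO. Both cKO values of Adamts13 were the higher ones, but it was not called (log2 fold change 0.18, adjusted p = 0.175).

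Adamts-like proteins have the ancillary domains of the Adamts proteases without the protease domain, and some of them bind fibrillin microfibrils. Adamtsl4, a microfibril protein, stood at 8.34 and 6.91 FPKM in Ctrl and at 4.21 and 3.90 FPKM in cKO (log2 fold change -0.77, SE 0.101, adjusted p = 0.00236). Adamtsl1 stood at 2.31 and 2.06 FPKM in Ctrl and at 0.81 and 0.98 FPKM in cKO (log2 fold change -0.75, SE 0.118, adjusted p = 0.00465), and its mean fell by 59.0%, the largest fall in percent among the called genes. The call of Adamtsl1 was lost without Ctrl replicate 1. Adamtsl5 was at 6.5 and 5.41 FPKM in Ctrl and at 4.85 and 4.46 FPKM in cKO and was not called (log2 fold change -0.29, SE 0.101, adjusted p = 0.0722). All 3 had both cKO values below both Ctrl values.

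Of the 4 tested lysyl oxidases 3 were called lower, and the values of all 4 were lower in cKO. Loxl1, the member that acts on elastin in elastic fibres, was the most abundant of them, at 43.3 and 35.0 FPKM in Ctrl and at 30.1 and 26.1 FPKM in cKO (log2 fold change -0.46, SE 0.110, adjusted p = 0.0221). Lox, the founding enzyme, stood at 19.8 and 20.6 FPKM in Ctrl and at 16.0 and 15.9 FPKM in cKO, with a tight spread in both genotypes (log2 fold change -0.32, SE 0.061, adjusted p = 0.0089). Loxl2, which crosslinks basement membrane collagen, was at 15.1 and 12.3 FPKM in Ctrl and at 9.71 and 9.80 FPKM in cKO (log2 fold change -0.45, SE 0.097, adjusted p = 0.0157). Loxl3 was at 3.69 and 3.20 FPKM in Ctrl and at 2.34 and 2.69 FPKM in cKO and missed the threshold (log2 fold change -0.34, SE 0.107, adjusted p = 0.0567). The 3 calls in this family were lost without Ctrl replicate 1, and single calls were also lost without another library, Lox without Ctrl replicate 2, Loxl1 without cKO replicate 2 and Loxl2 without either cKO replicate.

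**Figure D3:**
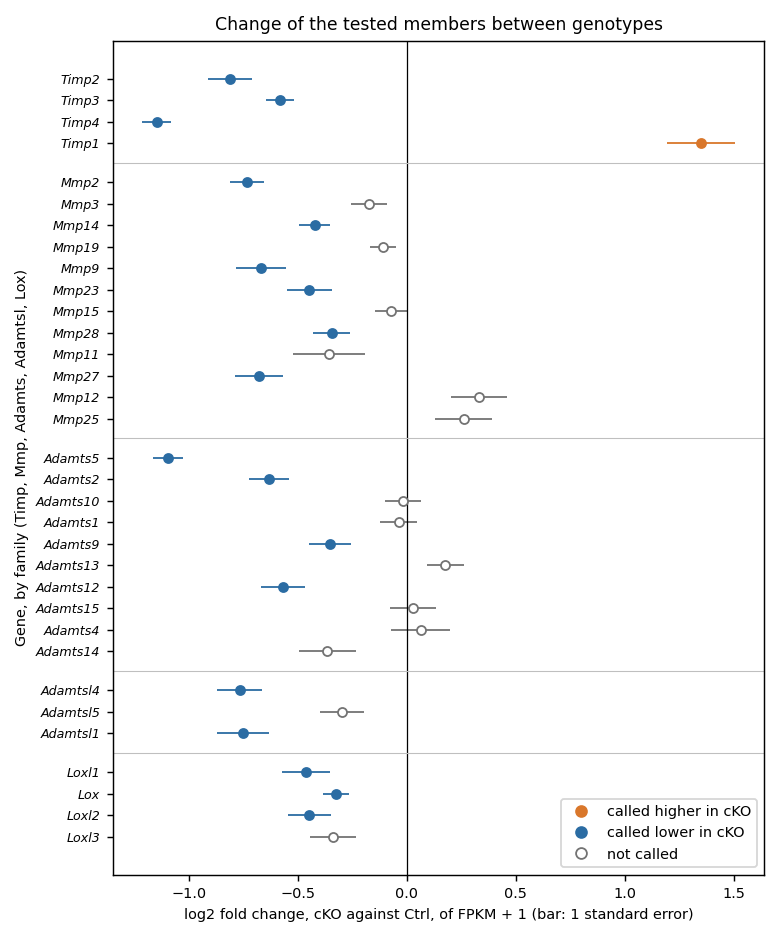
Log2 fold change of cKO against Ctrl on FPKM + 1 (horizontal axis) for the 33 tested members, grouped by family and ordered by mean level, with bars of 1 standard error from limma. Filled blue points mark the 18 genes called lower, the filled orange point marks Timp1, and open points mark the 14 genes that were not called.

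Summed over whole families, the level of the inhibitors was lower in the cKO libraries by a larger share than that of the metalloproteinases they inhibit. The 4 Timp genes summed to 313 and 279 FPKM in Ctrl and to 166 and 178 FPKM in cKO, a change of the mean by -41.9%. The 19 Mmp genes summed to 227 and 202 FPKM in Ctrl and to 155 and 161 FPKM in cKO, a change by -26.4%. The ratio of summed Mmp to summed Timp was 0.725 and 0.724 in Ctrl and 0.931 and 0.905 in cKO, a difference of the means several times the gap between libraries of a genotype. The change of the mean sum was -26.9% for Adamts, -39.3% for Adamtsl and -26.5% for the lysyl oxidases. In each of the 5 families, and in the ratio, the genotypes did not overlap, and an exact two-sided permutation test gave p = 0.33, the smallest value that 2 libraries against 2 allow. Such separation was common among single genes. Of all genes tested, 34.6% had both cKO values below both Ctrl values and 31.9% had both above. FPKM is a level of RNA and carries no information on protease activity.

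**Figure D4:**
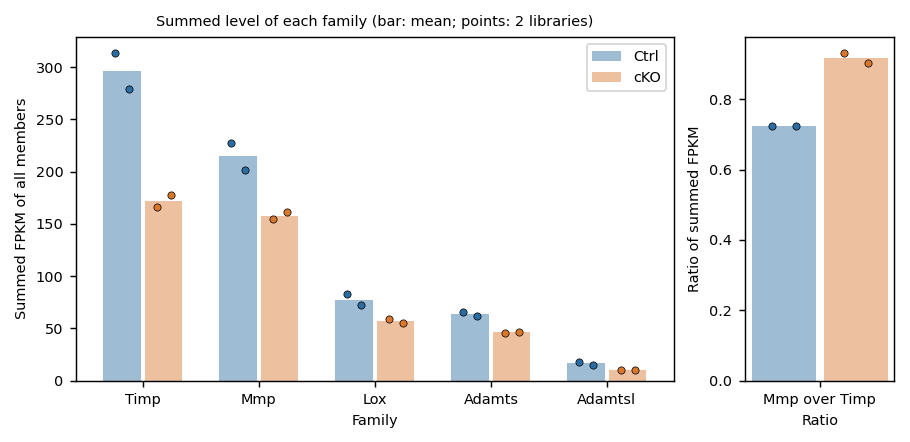
Left, summed FPKM of all members of each family, and right, the ratio of summed Mmp to summed Timp, for Ctrl (blue) and cKO (orange), with bars at the mean and points for the 2 libraries of each genotype. The Timp sum drops from 279 or more in Ctrl to 178 or less in cKO, and the ratio is above 0.9 in both cKO libraries and near 0.72 in both Ctrl libraries.

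The fall of these genes went with a lower summed level of the 9 fibroblast progenitor markers. Of these, Pdgfra, Dpp4, Pi16, Cd34, Col15a1 and Dpt were called lower and Icam1 was called higher, while Thy1 and Ly6a were not called. The 52 genes summed to 707 and 630 FPKM in Ctrl and to 436 and 451 FPKM in cKO. Divided by the summed level of the progenitor markers, the 52 genes came to 0.659 and 0.665 in Ctrl and to 0.703 and 0.707 in cKO. The same quotient was 0.292 and 0.294 in Ctrl against 0.268 and 0.279 in cKO for the Timp genes, and 0.212 and 0.213 against 0.249 and 0.253 for the Mmp genes. Relative to these markers the Mmp sum was higher in cKO and the Timp sum lower. The part of cell composition in the fall was not tested.

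The 19 members under the filter reached at most 0.94 FPKM in any library. The cKO mean was below the Ctrl mean for 11 of them and above it for 8. A mean under 0.1 FPKM was found for 6 of them. The 5 with a mean of at least 0.5 FPKM were Adamts6, Adamts7, Adamtsl3, Loxl4 and Mmp17, a set named after the values were seen. Of the 52 genes as a whole, 38 had the lower mean in cKO and 14 the higher. Of all 12658 genes tested, 6485 had a negative log2 fold change and 6173 a positive one.

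Other genes of matrix turnover stood in 6 lists that were drawn up by role with earlier results of these data known. Of their 91 genes 89 were in the table and 75 were tested. In these lists, 45 were called lower and 7 higher, and 60% of those tested were thus called lower. Of all genes tested, 13.8% were called lower and 12.0% higher, and these shares also stand against the counts per list below. The median log2 fold change of the 75 was -0.37. Without Ctrl replicate 1 the 52 calls dropped to 26. Among 11 tested convertases, activators and inhibitors, 7 were called lower and 3 higher. Plaur, the receptor of urokinase, was among those called higher, at 3.96 and 3.33 FPKM in Ctrl and at 6.78 and 6.75 FPKM in cKO. Bsg, which encodes the metalloproteinase inducer basigin, was also called higher and was the most abundant of the list, at 324 and 332 FPKM in Ctrl and at 501 and 438 FPKM in cKO (log2 fold change 0.51, adjusted p = 0.00428). Reck, a membrane-anchored inhibitor of metalloproteinases, was among the genes called lower, at 4.44 and 4.20 FPKM in Ctrl and at 2.77 and 2.57 FPKM in cKO.

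Among procollagen and Adam proteases, 6 of 11 tested were called lower and 1 higher. The higher one was Adam8, a protease of leukocytes, at 2.81 and 2.36 FPKM in Ctrl and at 10.5 and 8.77 FPKM in cKO (log2 fold change 1.56, SE 0.110, adjusted p = 0.000318). Pcolce, the enhancer of procollagen C-proteinase, was the most abundant, at 121 and 98.3 FPKM in Ctrl and at 66.5 and 66.7 FPKM in cKO (log2 fold change -0.71, adjusted p = 0.00265). Its relative Pcolce2 was at 41.6 and 35.0 FPKM in Ctrl and at 19.5 and 17.6 FPKM in cKO (log2 fold change -1.0, adjusted p = 0.000724). Both enhancers thus fell together with Adamts2, which trims the other end of procollagen. Among cysteine, aspartic and serine proteases 6 of 10 were called lower and 1 higher, and the most abundant, the lysosomal protease Ctsd, was not called, at 995 and 1015 FPKM in Ctrl and at 1133 and 1075 FPKM in cKO (adjusted p = 0.229).

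Of 11 tested genes of collagen modification, 4 were called lower and 1 higher. Serpinh1, which encodes the collagen chaperone HSP47, led them at 262 and 239 FPKM in Ctrl and at 194 and 188 FPKM in cKO (log2 fold change -0.39, adjusted p = 0.00664). Of 16 tested genes of elastic fibres and partners of the lysyl oxidases, 11 were called lower and 1 higher. The most abundant was Ltbp3, a latent TGF-β binding protein, at 50.5 and 45.1 FPKM in Ctrl and at 38.3 and 36.3 FPKM in cKO (log2 fold change -0.35, adjusted p = 0.012). The largest falls were those of Fbln1, which encodes fibulin-1, at 9.17 and 6.57 FPKM against 3.16 and 2.99 FPKM (log2 fold change -1.11, adjusted p = 0.00191), and of the microfibril gene Mfap5, at 37.4 and 32.2 FPKM against 16.2 and 16.8 FPKM (log2 fold change -1.03, adjusted p = 0.00042). Of 16 tested substrates of these proteases, 11 were called lower and none higher. Decorin, Dcn, was the most abundant, at 662 and 572 FPKM in Ctrl and at 307 and 345 FPKM in cKO (log2 fold change -0.92, SE 0.094, adjusted p = 0.00103).

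**Figure D5:**
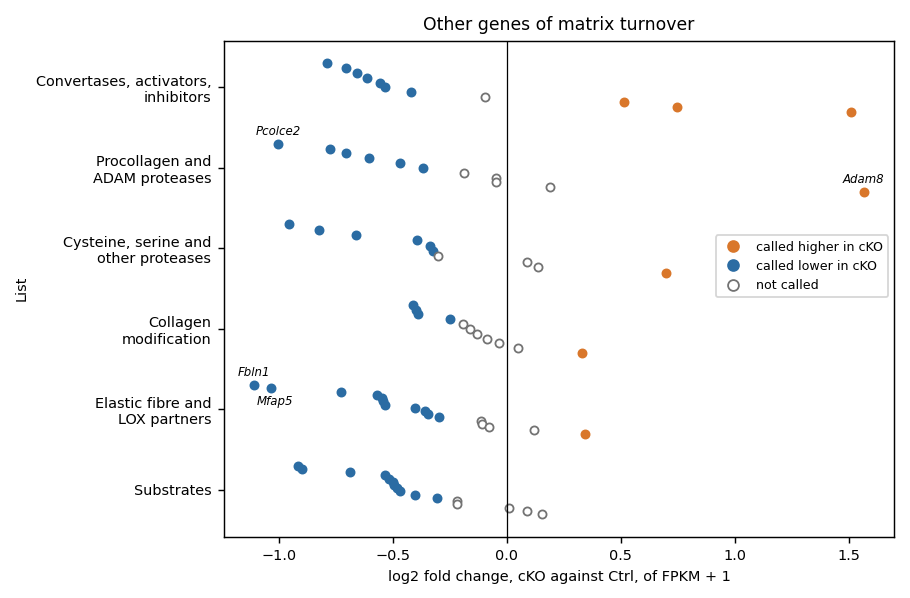
Log2 fold change of cKO against Ctrl on FPKM + 1 (horizontal axis) for the 75 tested genes of the 6 lists of other matrix turnover genes, 1 point per gene. Blue points mark the 45 genes called lower, orange points the 7 called higher and open points the 23 that were not called, and Adam8 stands at 1.56.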

How the data were processed

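Polyadenylated RNA of ingWAT was sequenced by the authors as single-end reads of 50 bases. The submitters' processing notes name HISAT2 2.0.4, RSEM 1.2.12 and the build mm10. The authors deposited FPKM per gene and library, given to the hundredth, with no further scaling stated, and no columns of comparisons were used. Of 19030 gene IDs, 18977 matched a RefSeq table of GRCm38.p6, and 24 symbols turned into dates were left as gene IDs. The depth is not given. From the smallest increments of FPKM in 305 genes of short RNAs it was estimated at 18150000 and 17800000 reads (Ctrl) and at 17400000 and 17550000 reads (cKO), with 85.2% to 91.2% of values whole within 0.1 reads. Whole counts were not recovered for genes in general, so no count test was run. Estimated reads of the tested members ran from 22.0 to 12756 per library and cover counting error only.

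Genes with a mean of at least 1 FPKM over the 4 libraries (12658) were compared with limma 3.58.1 in R 4.3.3 on log2(FPKM + 1), two-sided, with a variance trend and Benjamini-Hochberg adjustment over all of them. The procedure was tested on simulated data. Python 3.11.15, pandas 2.3.3, numpy 2.4.6 and matplotlib 3.10.9 served for the rest.

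The members and lists were chosen with earlier results of these data known. Every member with a mean of at least 1 FPKM is named. Members below it are named where a library reaches 1 FPKM, or where 1 genotype is listed at 0 and the other above 0.1. From the related lists, called genes with an absolute log2 fold change of at least 1 and the gene of highest mean per list are named, and Plaur and Reck were added after their values were seen. Some items that these rules would name are not reported here. Alternatives were a pseudocount of 0.1, no filter, a minimum of 5 FPKM, median-of-ratios scaling, quantile normalization, no trend, the replicate number as a block, a required absolute log2 fold change of 1, and each library left out in turn. Markers of B cells, T cells, endothelium, pericytes, mast cells, Schwann cells, epithelium and keratinocytes were also summed.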

Additional observations from a re-analysis of the deposited data

How the results depend on the processing

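The members called (19) numbered 8 to 16 when a library was left out, with 8 without Ctrl replicate 1, and 3 with an absolute log2 fold change of at least 1 (1 higher, 2 lower). The other settings gave 14 to 21 calls, and quantile normalization added Mmp12 (higher) and lost Adamts9. Over all genes, 3269 calls became 1762 with no filter, 233 with the fold threshold and 877 to 2429 with a library left out. The related genes called (52) became 5 with the fold threshold and 26 to 44 with a library left out. With no filter 14 members were called, of which 12 were among the 19, and Adamtsl3 and Mmp8 were added. Lost calls were Adamts12, Adamts9, Loxl1, Loxl2, Mmp23, Mmp28 and Mmp9. Without the filter the standard errors changed as well as the number of genes adjusted for, and the cause of these losses was not tested. With a library left out the sign turned for 4 genes that were not called, with log2 fold changes that ran from -0.1211 to 0.0469 for Adamts1, from -0.0998 to 0.0631 for Adamts10 (0.0211 without Ctrl replicate 1), from -0.0262 to 0.0831 for Adamts15 (-0.0205 without cKO replicate 2) and from -0.0544 to 0.1811 for Adamts4. The ratios of the family sums and the fall of Slc22a3 kept their direction in every setting run. With the replicate number as a block 20 members were called, Adamtsl5 in addition to the 19. The differences between replicates 1 and 2 in Ctrl and in cKO correlated at r = 0.015 across 12658 genes. The labels state no pairing of the samples, and a correlation of a single difference per genotype cannot exclude one. Low levels limit Timp1, Mmp12 and Mmp27, which rest on fewer than 100 reads per library.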

Other observations

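Within families, the makeup of the summed RNA shifted. Adamts5 supplied 25.6% and 25.8% of the summed Adamts level in the Ctrl libraries and 15.7% and 14.9% in the cKO libraries, while Adamts10 went from 14.3% and 14.2% to 18.3% and 20.2% and became the leading member. Timp1 made up 0.558% and 0.524% of the summed Timp level in Ctrl and 4.06% and 2.62% in cKO. Among the lysyl oxidases the makeup moved little, with Loxl1 at 52.4% and 48.7% in Ctrl and at 51.4% and 47.5% in cKO.

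Mmp8, the collagenase of neutrophil granules, was below the filter and was picked out after its values were seen. It stood at 0.04 and 0.05 FPKM in Ctrl and at 0.52 and 0.35 FPKM in cKO, from about 4 estimated reads in the Ctrl libraries together and 36 in the cKO libraries together. The ratio was 9.26 (95% exact interval 3.32 to 35.8, counting error only). With no filter it was called (log2 fold change 0.46 on FPKM + 1, limma adjusted p = 0.0434). It moved in the same direction as the neutrophil markers S100a8, at 3.49 and 3.26 FPKM in Ctrl and 9.52 and 10.1 FPKM in cKO, and Csf3r, at 2.05 and 1.96 against 5.19 and 4.23 FPKM, whereas Mmp9 moved in the opposite direction. The 5 granule genes of the list, too low to be tested, were mixed. Genotypes overlapped for Camp (0.77 and 0.49 FPKM in Ctrl, 0.41 and 0.81 in cKO). They also overlapped for Elane (0.61 and 0.94 against 0.97 and 0.77) and Mpo (0 and 0.04 against 0.09 and 0). Both cKO values were higher for Ngp (0.38 and 0.63 against 0.7 and 1.49) and Ltf (0.12 and 0.12 against 0.21 and 0.25).

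Sums of the other marker lists differed as follows. B cell markers summed to 202 and 227 FPKM in Ctrl and to 322 and 364 FPKM in cKO (5 of 5 called higher), and T cell markers to 62.8 and 68.3 against 88.3 and 117 FPKM (4 of 5 called higher). Endothelial markers summed to 192 and 191 against 164 and 170.4 FPKM (3 of 5 called lower), pericyte and smooth muscle markers to 131 and 133 against 112 and 113 FPKM (4 of 6 lower, 1 higher), mast cell markers to 137 and 113 against 100.1 and 105 FPKM (2 of 5 lower) and Schwann markers to 96.4 and 90.5 against 47.3 and 47.8 FPKM (3 of 4 tested lower, 1 higher). White adipocyte markers, whose sum is mostly Fabp4, summed to 20844 and 21247 against 17365 and 17649 FPKM (4 of 7 called lower). Epithelial and keratinocyte markers summed to less than 3 FPKM in every library.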
